A study of Bos taurus with 12 samples.

Results

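The 7 genes described here are LIPE, PNPLA2, MGLL, LIPA, ABHD5, DDHD2 and LDAH. LIPE, PNPLA2, MGLL, LIPA and DDHD2 encode enzymes that release fatty acid or cholesterol from neutral lipid. ABHD5 encodes the cofactor of 1 of them, and LDAH a lipid droplet hydrolase whose substrate is not settled. All 7 were chosen by symbol, and each matched 1 of the 27270 gene rows in the tables of every library. The tissue was whole corpus luteum from mixed breed cows on day 10 of the luteal phase, and the 12 cows gave 1 RNA-seq library each. Cows received an intramuscular injection of a luteolytic dose of PGF2α and their corpora lutea were obtained 4 h (n = 4) or 12 h (n = 4) later, or they received saline as controls (n = 4). According to the study's methods the cows were non-lactating and multiparous, and the estrous cycles of all groups, controls included, had been synchronized earlier with PGF2α. The interval between saline and collection is not in the labels, and the ages of the cows are not given in the sources used here.

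Luteal cells store cholesteryl ester and triacylglycerol in cytoplasmic lipid droplets, and the cholesterol released from the ester is a substrate for progesterone. In the cytosolic route, the triglyceride lipase encoded by PNPLA2 (ATGL) makes the first cut with ABHD5 as its coactivator, hormone-sensitive lipase encoded by LIPE (HSL) cleaves diacylglycerol and cholesteryl ester after phosphorylation by protein kinase A, and the lipase encoded by MGLL cleaves the remaining monoacylglycerol. In the lysosomal route, acid lipase encoded by LIPA hydrolyzes the esters taken up with lipoproteins or delivered by autophagy. PGF2α is the signal that ends the life of the bovine corpus luteum, during which progesterone secretion is lost.

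Libraries held between 10263310 and 22600213 expected counts. Mitochondrially encoded genes took 7.22 to 14.1% of counts at 12 h, 7.78 to 10.2% at 4 h and 6.77 to 10.0% in controls, and the mean effective transcript length of a library, weighted by TPM, was 1314 to 1478 bases at 12 h, 1523 to 1647 at 4 h and 1529 to 1628 in controls. The luteal label was borne out by the 6 steroidogenic markers, which were detected in all groups and summed to 18887 to 22700 TPM at 4 h, 5036 to 10546 TPM at 12 h and 20091 to 29788 TPM in controls. Adipocyte markers, which bear on LIPE and PNPLA2 because adipose tissue can adhere to the ovary, were close to absent. Their 8 genes summed to between 2.41 and 6.19 TPM in every library of the 12, ADIPOQ averaged 0.265 TPM at 4 h, 0 at 12 h and 0.125 in controls, and only PLIN1 passed the count minimum. In whole tissue, fewer cells of a type and less RNA per cell cannot be told apart.

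The transcripts called after PGF2α went in different directions, and not all 7 were called. At 12 h LIPA was higher than in controls, ABHD5, DDHD2 and LDAH were lower, MGLL was higher by a smaller and less stable margin, and neither LIPE nor PNPLA2 passed the test. The deepest fall was that of LDAH, to 3.73 ± 0.65 TPM at 12 h, against 13.1 ± 1.43 TPM in controls (SD, n = 4 each). At 4 h the test called 1 rise (MGLL) and 1 fall (LDAH), and both calls were lost when certain single cows were left out. Values are TPM, a level per transcript length, unless stated, and fold changes are from edgeR on counts. A call is a Benjamini-Hochberg adjusted p under 0.05 over the 14481 genes tested. By that rule, 14.2% of all genes tested were called at 4 h and 48.9% at 12 h.

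**Figure D1:**
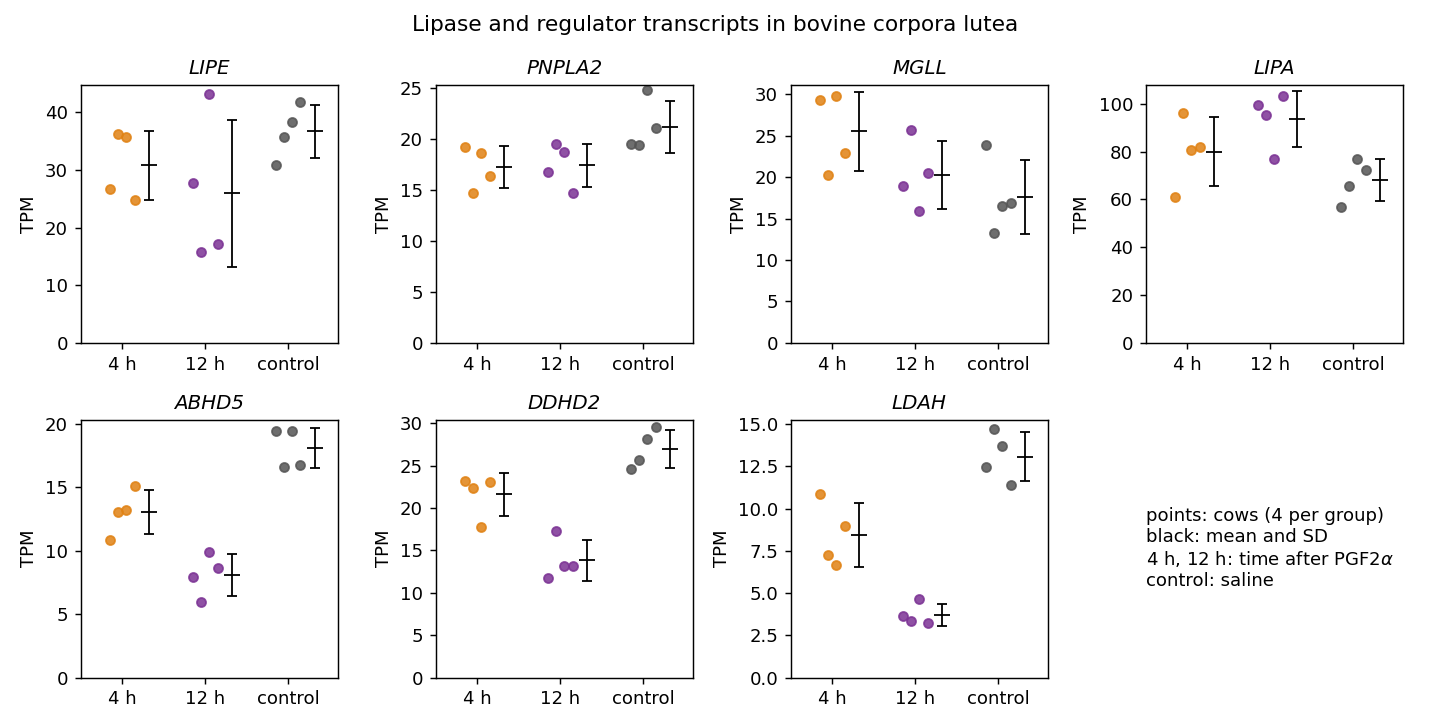
TPM (vertical axes, from 0) of the 7 lipase and regulator genes in each cow 4 h and 12 h after PGF2α and after saline; points are cows, black marks are the mean and SD of 4 cows. The 12 h points of ABHD5, DDHD2 and LDAH all lie below the control points, while those of LIPE extend over 15.7 to 43.3 TPM and cover the control range.

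Of the cytosolic lipases, LIPE (chromosome 18, 50889179 to 50907197 in ARS-UCD1.2, the build of the files) was the most abundant. Cows 1 to 4 had 26.6, 36.2, 35.7 and 24.7 TPM at 4 h, 27.7, 15.7, 43.3 and 17.1 TPM at 12 h, and 31.0, 35.7, 38.4 and 41.8 TPM after saline. The 12 h cows stood apart in opposite directions, since cow 3 exceeded every control while cows 2 and 4 were below every cow of the other groups. The coefficient of variation of LIPE was 19.4% at 4 h and 49.0% at 12 h, against 12.4% in controls. In edgeR, LIPE differed from controls by -0.20 in log2 (SE 0.29, adjusted p = 0.697) at 4 h and -0.17 (SE 0.29, adjusted p = 0.666) at 12 h, and the 95% interval of the 12 h difference, -0.81 to 0.47, leaves room for a change of either sign.

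PNPLA2 (chromosome 29, 50548324 to 50553197) had 19.3, 14.7, 18.6 and 16.4 TPM at 4 h, 16.8, 19.5, 18.7 and 14.7 TPM at 12 h, and 19.5, 19.4, 24.8 and 21.1 TPM after saline. All 4 cows at 4 h lay below all 4 controls, by a narrow gap, and the 12 h cows overlapped the controls. The edgeR change, in log2, was -0.27 (SE 0.13, adjusted p = 0.182) at 4 h and 0.02 (SE 0.13, adjusted p = 0.914) at 12 h, with a 95% interval of -0.26 to 0.29 for 12 h. On the TPM scale the 12 h mean was 0.821 times that of controls (exact two-sided permutation p = 0.0571), so the sign of the 12 h difference depended on the scale.

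MGLL (chromosome 22, 59639050 to 59826846) had 29.3, 20.2, 29.8 and 22.9 TPM at 4 h, 18.9, 25.7, 15.9 and 20.5 TPM at 12 h, and 23.9, 13.2, 16.5 and 16.9 TPM after saline. Control cow 1 was the highest control and lay inside the range of both treated groups. The fitted rise was 0.58 (SE 0.18, adjusted p = 0.0445) at 4 h and 0.50 (SE 0.18, adjusted p = 0.0318) at 12 h. Both calls were close to the threshold. On log2(TPM + 1) with limma the changes were 0.52 (adjusted p = 0.0973) and 0.20 (adjusted p = 0.404). Leaving out any of control cows 2, 3 or 4 ended both calls (adjusted p = 0.0973, 0.0981 and 0.101 at 4 h, and 0.0645, 0.0653 and 0.0581 at 12 h), while with any cow left out the log2 fold changes stayed between 0.47 and 0.75 at 4 h and between 0.42 and 0.69 at 12 h. The 4 h call was also lost without 4 h cow 1 or 3 (adjusted p = 0.0896 and 0.110) or 12 h cow 1 or 4 (0.0565 and 0.0572), and the 12 h call without 12 h cow 1, 2 or 4 (0.0653, 0.0573 and 0.0779).

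The lysosomal acid lipase gene LIPA (chromosome 26, 10952398 to 11082198) was the most abundant of the 7 in every group. It had 61.1, 96.3, 80.7 and 82.0 TPM at 4 h, 99.6, 95.5, 76.8 and 103 TPM at 12 h, and 56.9, 65.8, 77.1 and 72.2 TPM after saline. At 12 h 3 of 4 cows were above all controls, and cow 3, with 76.8 TPM, was level with the highest control. In CPM, counts scaled to each library's size by TMM, all 4 cows at 12 h, between 141 and 194 CPM, exceeded all controls, between 79.6 and 116 CPM (21% of all genes had all 12 h cows above all controls in CPM). edgeR put the log2 difference from controls at 0.27 (SE 0.17, adjusted p = 0.309) for 4 h and 0.78 (SE 0.17, adjusted p = 0.00220) at 12 h. The rise at 12 h was called in each of the 22 other settings run, with log2 values of 0.46 to 0.87, the lowest being that on TPM.

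Macrophages are rich in lysosomal lipase, and 8 of 12 macrophage and monocyte markers rose at 12 h and none fell (6 to 11 rose with each cow left out, and 1 rose at 4 h), where 23.6% of all genes rose at 12 h and 8.65% at 4 h. Their summed level was 266 to 518 TPM at 4 h, 535 to 831 TPM at 12 h and 208 to 661 TPM in controls, and none of the 12 was at 0. Control cow 2 had the 661 TPM, as much as the 12 h cows, and its LIPA level of 65.8 TPM was within the range of the other controls. Markers of other cell types moved at 12 h as well. Of 5 neutrophil markers 4 rose, S100A8, S100A9, S100A12 and CSF3R (2 rose without 12 h cow 3). The remaining marker, CXCR2, had a log2 fold change of -0.50 (adjusted p = 0.344). CSF3R was low, at a mean of 0.53 TPM at 12 h against 0.27 TPM in controls. The neutrophil list summed to 80.5 to 246 TPM at 12 h, against 12.8 to 32.4 TPM in controls. Of 5 fibroblast markers 2 rose (none without control cow 3 or 4, 1 without 12 h cow 2 or 4, and none with limma on log2(TPM + 1)), of 8 endothelial markers 2 rose and 1 fell (1 rose without control cow 2, 3 or 4 or without 12 h cow 1, 2 or 3, and none with limma), and the only erythrocyte marker tested rose. The part of these cells in the rise of LIPA was not tested. The span of LIPA in the annotation also contains or overlaps IFIT2 (11028206 to 11035934), IFIT3 (11043454 to 11054461), IFIT1 (11068424 to 11074395) and IFIT5 (11081800 to 11091761), interferon-induced genes. Since the strand setting of the counting is not given in the sources used here, reads could be shared and the LIPA values carry that uncertainty. At 12 h IFIT5 rose (log2 fold change 0.51), IFIT1 (-0.89) and IFIT2 (-0.94) fell and IFIT3 did not pass the test (-0.08, adjusted p = 0.851), and together the 4 reached 44.2 to 63.6 TPM at 12 h and 47.8 to 57.3 TPM in controls. Neither IFIT fall was called without control cow 2, 4 h cow 2, or 12 h cow 1 or 4. With limma on log2(TPM + 1) none of the 4 rose and 2 fell at 12 h, so the IFIT5 rise depended on the scale.

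ABHD5 (chromosome 22, 15584972 to 15626415) encodes the coactivator of the triglyceride lipase. Its levels were 10.9, 13.1, 13.2 and 15.1 TPM at 4 h and 7.92, 5.97, 9.92 and 8.67 TPM at 12 h. After saline they were 19.4, 16.6, 19.4 and 16.8 TPM. In TPM the groups did not overlap at any pair of times, while in CPM the 12 h and 4 h cows overlapped. Of all genes, 10.7% at 4 h and 34.9% at 12 h lay wholly below the controls in TPM. At 12 h 30.3% lay wholly below their 4 h values. The fall at 12 h was called by edgeR (-0.67, SE 0.17, adjusted p = 0.00535) and in each of the 22 other settings, between -1.16 and -0.47. The 4 h difference (-0.53, SE 0.16) missed the threshold narrowly, with an adjusted p of 0.0504. DESeq2 called it (adjusted p = 0.0246), as did 3 of the other 8 settings that kept every cow. The mean TPM was 0.450 times that of controls at 12 h, a deeper fall than on the count scale.

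DDHD2 (chromosome 27, 33387283 to 33416172) encodes a phospholipase that also hydrolyzes triacylglycerol, known as the main such enzyme of mouse brain. Levels were 23.3, 22.3, 17.8 and 23.1 TPM at 4 h, 11.8, 17.3, 13.1 and 13.1 TPM at 12 h, and 24.6, 25.7, 28.1 and 29.5 TPM after saline. All cows at 12 h lay below all cows at 4 h, and these below all controls. Relative to controls, edgeR gave a log2 change of -0.29 (SE 0.09, adjusted p = 0.0571) at 4 h and -0.67 (SE 0.10, adjusted p = 1.50e-04) at 12 h. When the fit was corrected for the dependence of counts on transcript length within each library (a length offset), the 12 h fall was -0.44 and still called, and that at 4 h became -0.36 (adjusted p = 0.00902).

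LDAH (chromosome 11, 78103100 to 78189034), a serine hydrolase of the lipid droplet surface whose substrate is not settled, was the least abundant. It was found at 10.9, 7.28, 6.64 and 8.97 TPM at 4 h, at 3.64, 3.36, 4.67 and 3.25 TPM at 12 h, and at 12.5, 14.7, 13.7 and 11.4 TPM after saline. The 3 groups were again separate, and the 12 h mean was 0.285 times that of controls. The log2 fold change was -1.52 at 12 h (SE 0.17, adjusted p = 3.56e-05) and was called in each of the 22 other settings, between -1.79 and -1.39. At 4 h it was -0.60 (SE 0.17, adjusted p = 0.0336). That call was lost without control cow 2 or 3 (adjusted p = 0.0972 and 0.0871) or without 4 h cow 2, 3 or 4 (adjusted p = 0.105, 0.0771 and 0.0684), with the fold change between -0.70 and -0.50.

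**Figure D2:**
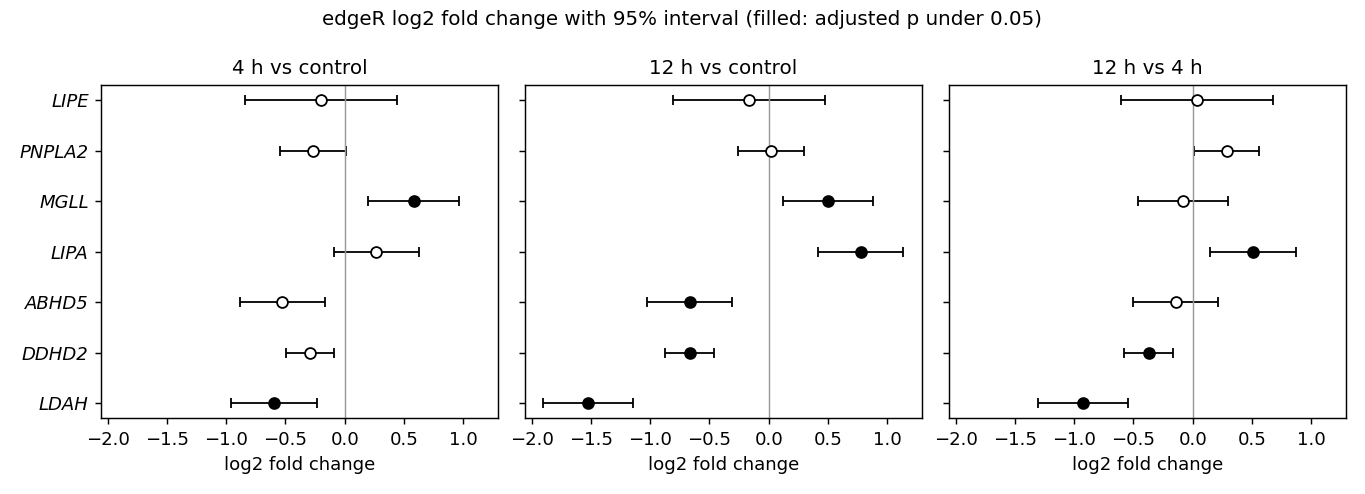
edgeR log2 fold change (horizontal axes) of the 7 genes with its 95% interval, at 4 h and at 12 h against saline controls and at 12 h against 4 h; points are filled where the adjusted p is below 0.05. LDAH reached -1.52 at 12 h, ABHD5 and DDHD2 both -0.67 and LIPA 0.78, while the intervals of LIPE and PNPLA2 at 12 h include 0.

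In numbers, 2 of 7 genes were called at 4 h (1 rose and 1 fell), where 14.2% of all genes tested were called, 8.65% higher and 5.59% lower (11.3% with limma on log2(TPM + 1)). At 12 h 5 of 7 were called (2 rose and 3 fell), where 48.9% of all genes were called, 23.6% higher and 25.3% lower. With limma on log2(TPM + 1) 49.3% of all genes were called at 12 h, 10.4% higher and 38.9% lower, and the median over all genes was -0.25 on that scale, against 0.01 in the edgeR fit. The members then counted 1 rise (LIPA) and 3 falls. The median log2 fold change of the 7 was -0.27 at 4 h and -0.17 at 12 h, beside -0.03 and 0.01 over all genes. The 2 comparisons share the same 4 control cows. The count at 4 h was 0 without control cow 2, control cow 3 or 4 h cow 3, and 3 without control cow 1 or 12 h cow 2. It was 1 with any of 6 other cows left out, which were control cow 4, 4 h cows 1, 2 and 4, and 12 h cows 1 and 4.

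On the TPM scale, 4 of 7 genes (PNPLA2, ABHD5, DDHD2 and LDAH) had all 4 cows at 4 h below all 4 controls, where 10.7% of all genes did, and none lay wholly above, where 8.31% did. At 12 h 3 of 7 (ABHD5, DDHD2 and LDAH) lay wholly below the controls, where 34.9% of all genes did, and none lay wholly above, where 9.12% did. For each of these separations the exact two-sided permutation p was 0.0286, the smallest that 4 against 4 cows allow, before any adjustment for the 21 such tests. After Benjamini-Hochberg adjustment each was 0.06.

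The direct comparison of 12 h with 4 h called 3 of 7 genes, where 46.7% of all genes were called, 22.5% higher and 24.3% lower. LIPA was higher at 12 h (0.51, SE 0.17, adjusted p = 0.0240), and DDHD2 (-0.37, SE 0.09, adjusted p = 0.00683) and LDAH (-0.93, SE 0.17, adjusted p = 0.00103) were lower. The LDAH fall was called in every other setting. That of LIPA was lost on log2(TPM + 1) (0.24, adjusted p = 0.203) and without 4 h cow 1 or 12 h cow 1 or 4 (adjusted p = 0.0506, 0.0778 and 0.0798), and that of DDHD2 was lost with the length offset (-0.08, adjusted p = 0.434). ABHD5 showed a dependence on the unit. Its TPM was lower in all 4 cows at 12 h than in any at 4 h (ratio of means 0.622), as were those of DDHD2 and LDAH, where 30.3% of all genes lay wholly below and 8.62% wholly above their 4 h values, and it passed in the limma fit on log2(TPM + 1) (-0.63, adjusted p = 0.00383), which called 44.9% of all genes in this comparison, 9.0% higher and 35.9% lower, but the edgeR difference was -0.14 (SE 0.17, adjusted p = 0.505). PNPLA2 was 0.29 higher at 12 h than at 4 h (SE 0.13, adjusted p = 0.0809), and this passed with the length offset (adjusted p = 0.0445) and without 4 h cow 3 (adjusted p = 0.0430).

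Levels per transcript length can be ranked within a group. At 4 h the order of mean TPM was LIPA, LIPE, MGLL, DDHD2, PNPLA2, ABHD5 and LDAH, and the cows' ranges separated LIPA from LIPE and ABHD5 from LDAH, the other neighbours overlapping. By 12 h the order was LIPA, LIPE, MGLL, PNPLA2, DDHD2, ABHD5 and LDAH, with gaps between LIPA and LIPE, between DDHD2 and ABHD5 and between ABHD5 and LDAH. In controls it was LIPA, LIPE, DDHD2, PNPLA2, ABHD5, MGLL and LDAH, and only LIPA, LIPE and DDHD2 were separated from each other. Against all genes tested, the mean of LIPA stood at percentile 88.0 at 4 h, 91.0 at 12 h and 86.1 in controls, and that of LDAH at 37.9 at 4 h, 28.1 at 12 h and 48.1 in controls.

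Ratios within a cow do not depend on the scaling between libraries, and 6 were compared, in 18 tests. The smallest permutation p of these was 0.103 after Benjamini-Hochberg adjustment over the 18, so no ratio passed once adjusted. The ratio of the coactivator to its lipase, ABHD5 to PNPLA2, was 0.473, 0.307, 0.531 and 0.589 in the 12 h cows, against 0.996, 0.859, 0.784 and 0.795 in controls. No 12 h cow reached the lowest control, and the fold between groups was 0.540 (exact two-sided permutation p = 0.0286, unadjusted). At 4 h it was 0.770 ± 0.166 (SD, n = 4), which overlapped the controls (exact p = 0.429). TPM divides by the transcript length that RSEM gives a gene in each library. For ABHD5 that length averaged 1826 bases at 12 h and 1634 in controls, with overlap, and for PNPLA2 it was 2175 throughout. The part of length in the ABHD5 to PNPLA2 ratio was not tested. DDHD2 to PNPLA2 was 0.797 ± 0.108 at 12 h, against 1.27 ± 0.247 at 4 h and 1.28 ± 0.112 in controls, and its 12 h cows lay below both other groups (exact p = 0.0286 for each, unadjusted). These transcripts differ in length, 4307 and 2175 bases, and the ratio was not corrected for the dependence of counts on length. With the length offset in edgeR, DDHD2 changed by -0.08 from 4 h to 12 h (adjusted p = 0.434), and PNPLA2 was called higher (adjusted p = 0.0445).

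The ratio of the lysosomal LIPA transcript to the cytosolic PNPLA2 transcript ran the other way, and LIPA was not set against MGLL. LIPA to PNPLA2 was 5.94, 4.91, 4.11 and 7.01 at 12 h, against 2.92, 3.40, 3.11 and 3.42 in controls, a 1.68-fold difference with no overlap (exact p = 0.0286, unadjusted). LIPA to LIPE was 2.29, 2.66, 2.26 and 3.32 at 4 h, all above the 1.84, 1.84, 2.01 and 1.73 of controls (exact p = 0.0286, unadjusted). At 12 h it reached 6.08 and 6.02 in cows 2 and 4 but only 1.78 in cow 3, which overlapped the controls (exact p = 0.114). MGLL to LIPE was 0.854 ± 0.226 at 4 h and 0.970 ± 0.560 at 12 h, against 0.494 ± 0.187 in controls (exact p = 0.0571 and 0.257), and PNPLA2 to LIPE overlapped between all groups.

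**Figure D3:**
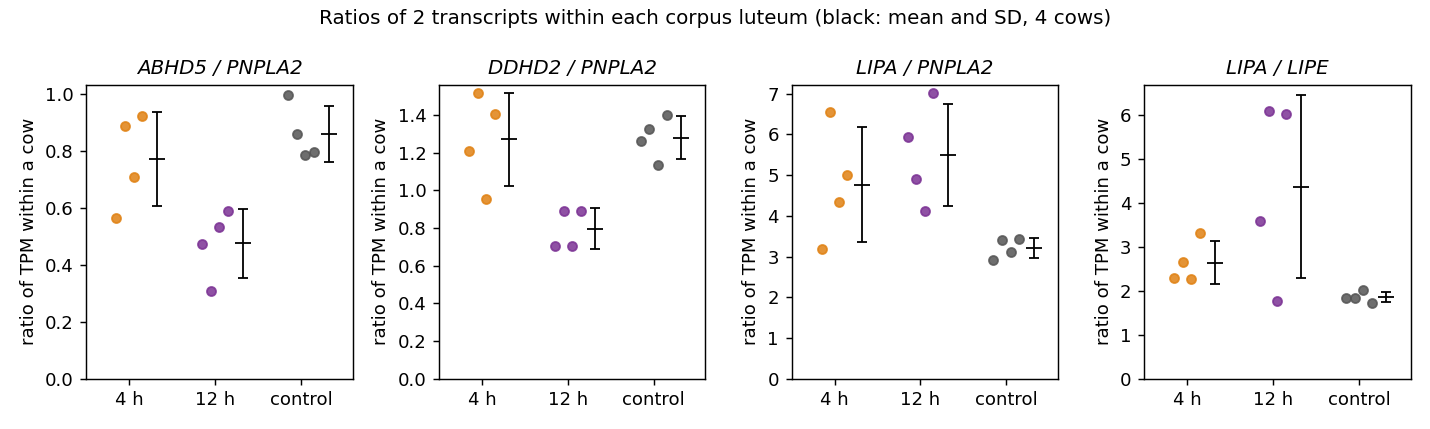
Ratio of the TPM of 2 genes within each cow (vertical axes, from 0) 4 h and 12 h after PGF2α and after saline; black marks are the mean and SD of 4 cows. ABHD5 to PNPLA2 and DDHD2 to PNPLA2 are lower in the 12 h cows than in every control, LIPA to PNPLA2 is higher, and LIPA to LIPE at 12 h runs from 1.78 to 6.08.

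The genes whose profiles over the 12 cows were most like each member were found by the root mean square difference of log2 CPM, each gene centred on its own mean, among 10420 genes. For DDHD2 they were ATXN7L3B and EPRS1 (0.065 and 0.077, where the root mean square of DDHD2's own deviations, its spread, was 0.292). PNPLA2 was nearest to RARS2 and SLC25A26 (0.088 and 0.10, own spread 0.203), LIPA to MCOLN1 and ZNF821 (0.145 and 0.170, own spread 0.393) and ABHD5 to AMIGO1 and SQOR (0.161 and 0.166, own spread 0.360). For LDAH the nearest were MOB4 and THAP12 (0.181 and 0.202, own spread 0.656), and for MGLL RRP1 and GLIS2 (0.168 and 0.182, own spread 0.350). LIPE had the least close neighbours, ETFA and HIBCH (0.234 and 0.256, own spread 0.433). These are descriptions, and the members' profiles include the group differences.

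Around the lipases, 7 lists of genes of the same pathway were read in the same fit. Each count is to be read beside the share over all genes tested, which in edgeR was 8.65% higher and 5.59% lower at 4 h and 23.6% higher and 25.3% lower at 12 h, with medians of -0.03 and 0.01. With limma on log2(TPM + 1) the 12 h shares were 10.4% higher and 38.9% lower, with a median of -0.25. Such shares are not given here for DESeq2, the length offset or the fits with a cow left out. Of 14 tested genes of the route by which LH acts on lipolysis, through cAMP and protein kinase A, the kinase that phosphorylates HSL, none rose and 9 fell at 12 h, with a median log2 fold change of -0.77 (with the length offset, 1 rose and 8 fell). Among them were the kinase regulatory subunit PRKAR2A (-1.63, SE 0.16), the adenylyl cyclases ADCY3 (-1.36, SE 0.14) and ADCY9 (-1.74, SE 0.22) and the cAMP phosphodiesterase PDE4D (-2.14, SE 0.26). The list holds genes that act for the route and genes that act against it, such as the phosphodiesterases. Its counts and median therefore give no direction for the route as a whole. At 4 h 3 rose and none fell. These 3, named after their values were seen, were the phosphodiesterase PDE8A (1.46), the regulatory subunit PRKAR1A (0.39) and the anchoring protein gene AKAP1 (0.34). With each cow left out in turn the falls at 12 h numbered 7 to 9, and the rises at 4 h 1 to 4, with 1 left without control cow 3 or control cow 4. DESeq2 called 5 rises and 2 falls at 4 h. The 5 of 6 luteal steroidogenic markers that fell at 12 h include LHCGR, which is in this list too (-1.97, named after its value was seen), and the part of luteal cells in these falls was not tested.

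The list for the lysosomal route held 15 tested genes, of which 3 rose and none fell at 4 h, and 7 rose and 2 fell at 12 h (median 0.26). The risers at 12 h included GNPTG (0.81, SE 0.13) and GNPTAB (0.57, SE 0.10), subunits of the enzyme that marks acid hydrolases for the lysosome, NPC2 (0.63, SE 0.11), the lysosomal cholesterol carrier, and SQSTM1 (0.90, SE 0.15), an autophagy receptor. MITF (-1.41) and the mannose 6-phosphate receptor gene IGF2R (-0.55) fell, both named after their values were seen. At 4 h the risers, likewise named afterwards, were the transcription factor gene TFE3 (0.59), NPC1 (0.50) and SQSTM1 (0.54). TFEB, a regulator of lysosomal genes also named afterwards, had 0.15 at 4 h and 0.28 at 12 h and passed at neither time. This balance depended on the scale, since limma on log2(TPM + 1) called 3 genes higher and 6 lower at 12 h, with a median of -0.20, beside -0.25 over all genes. With each cow left out, edgeR called 5 to 8 genes higher and 2 lower at 12 h, while the 4 h count of rises was 1 without control cow 1, control cow 4 or 4 h cow 2.

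Of 14 other acylglycerol and ester hydrolases tested, none rose and 1 fell at 4 h (PNPLA6, -0.75), and 1 rose and 8 fell at 12 h (median -0.41). SEC23IP, which encodes a phospholipase-like relative of DDHD2, fell at 12 h to a mean of 14.9 TPM, against 36.2 TPM in controls (log2 fold change -0.98, SE 0.12). The lysophospholipase gene PNPLA6 (-1.22, SE 0.20), the phospholipase gene PNPLA8 (-0.62, SE 0.12) and the diacylglycerol lipase gene DAGLA (-1.42, SE 0.31) fell as well. The single riser, PNPLA4 (0.91, SE 0.33), was named after its value was seen and did not pass on log2(TPM + 1), where none of the list rose and 8 fell. With the length offset 2 rose and 6 fell, and the median was -0.15. With each cow left out the falls at 12 h numbered 6 to 8 and the rises 0 to 3 (3 without 12 h cow 2, and 0 without control cow 2 or 4 or 12 h cow 1 or 3). The fall of PNPLA6 was the list's only call at 4 h, and no fall was called there without control cow 3 or 4 or without 4 h cow 2 or 4.

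Among 7 genes of re-esterification, the reactions that return released lipid to esters, 2 rose at 4 h and none fell, and 1 rose and 3 fell at 12 h (median -0.21). LCAT, which esterifies cholesterol in plasma lipoproteins, rose at both times (1.41, SE 0.14, and 1.67, SE 0.14). SOAT1, the intracellular cholesterol acyltransferase, rose at 4 h (0.55, named after its value was seen) and had 0.13 at 12 h (adjusted p = 0.463). The acyl-CoA synthetase genes ACSL4 (-2.01, SE 0.37), ACSL1 (-0.58, SE 0.17) and ACSL3 (-0.37, SE 0.13) fell at 12 h. The falls numbered 1 without control cow 4, without 12 h cow 2 or with the length offset, where the median was -0.13, and the rises at 4 h numbered 1 without control cow 1, control cow 3 or 4 h cow 2.

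Transcription factors known to act on lipase genes in other tissues numbered 11, of which 3 rose and none fell at 4 h, and 1 rose and 6 fell at 12 h (median -0.54). FOXO3, whose family activates the triglyceride lipase gene in adipocytes, fell at 12 h (-2.27, SE 0.30), as did SP1 (-0.81, SE 0.13), the steroidogenic factor gene NR5A1 (-0.79, SE 0.14) and the fatty acid receptor gene PPARA (-1.48, SE 0.26). PPARG rose (0.82, SE 0.24, named after its value was seen) at a mean of 2.05 TPM at 12 h, against 1.47 TPM in controls. The 4 h risers, named in the same way, were EGR1 (1.86), PPARD (0.97) and FOXO1 (0.52). Without 4 h cow 2 the 4 h rises numbered 1. The 12 h counts were 1 and 6 with any cow left out, and 0 and 9 with limma on log2(TPM + 1). With the length offset 1 rose and 4 fell, and the median was -0.25.

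The list for fatty acid binding, cholesterol transport and glycerol channels had 11 tested genes, with 1 fall at 4 h (ABCA1, -1.06) and 3 rises and 4 falls at 12 h (median 0.08). The cholesterol exporter gene ABCA1 (-3.27, SE 0.30) and the cholesterol carriers STAR (-2.49, SE 0.37) and STARD4 (-2.50, SE 0.36) fell, and the fatty acid binding protein gene FABP5 rose (2.38, SE 0.30). On log2(TPM + 1) 1 rose and 5 fell at 12 h, and the fall at 4 h was not called without control cow 3 or 4 or without 4 h cow 1, 3 or 4. Of 6 tested droplet coat genes, 2 rose at 4 h, PLIN2 and CIDEB (1.60, SE 0.46, at a mean of 4.10 TPM at 4 h, against 1.47 TPM in controls), and at 12 h 1 rose and 2 fell. The 4 h rises numbered 1 without control cow 2 or 3, 4 h cow 2 or 3, or 12 h cow 4. G0S2 and HILPDA, the lipase inhibitor genes of that list, were not analysed here. Together the 8 coat genes found in the tables summed to 1892 to 2646 TPM at 4 h, 1539 to 2397 TPM at 12 h and 589 to 743 TPM in controls, most of it PLIN2. Of the others, PLIN3 (-1.0) and PLIN4 (-1.86) fell at 12 h and PLIN1 had 0.33 (adjusted p = 0.157). PLIN5 was below the count minimum and averaged 0.115 TPM at 4 h, 0.0825 TPM at 12 h and 0.503 TPM in controls.

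**Figure D4:**
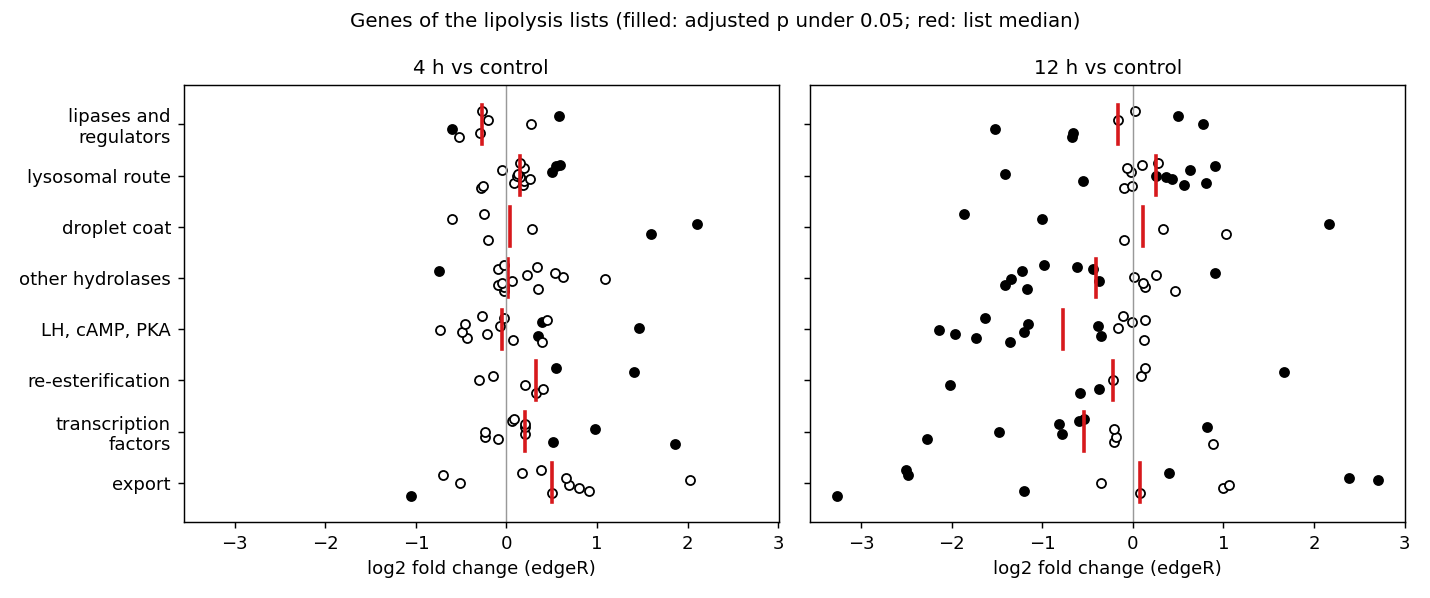
edgeR log2 fold change (horizontal axes) of each tested gene of the 7 members and of the 7 pathway lists, at 4 h and at 12 h against saline controls; points are filled where the adjusted p is below 0.05, and red bars are list medians. At 12 h the bar of the LH, cAMP and protein kinase A list lies at -0.77 and that of the lysosomal list at 0.26.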

How the data were processed

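Total RNA of 12 corpora lutea was sequenced. The submitters' processing notes name STAR 2.5 and RSEM 1.3 on ARS-UCD1.2, and the annotation release and strand setting are not given in the sources used here. The authors deposited, per library, RSEM expected counts (estimated counts, not whole), TPM and FPKM per gene, of which FPKM was not used here, with lengths. Expected counts were rounded and tested with edgeR 4.0.16 (quasi-likelihood, TMM, all 3 groups in 1 fit, at least 10 counts in at least 4 libraries, 14481 of 27270 genes), with Benjamini-Hochberg adjustment over all genes. All 7 members passed the minimum. TPM values and within-cow ratios were compared by exact permutation tests of group means (Python 3.11.15, scipy 1.17.1). Cows are numbered 1 to 4 within a group in accession order, which pairs nothing. Whether libraries come from separate preparations beyond separate cows is not stated.

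Alternatives were DESeq2 1.42.0, limma 3.58.1 on log2(TPM + 1) and log2(TPM + 0.1), RLE scaling, no count minimum or 50, 2 groups only, no mitochondrial genes, a length offset, each cow left out, and 4 h cow 3 with 12 h cow 2 left out (chosen after seeing the data). The scripts were tested on simulated data. Members and lists were chosen with earlier results of these data known. Named genes are the members, 2 nearest profiles each, and up to 4 genes per list with the smallest p at 12 h, plus the perilipins, and exceptions are said beside the gene.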

Additional observations from a re-analysis of the deposited data

Results flagged for a closer look

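Of 39 groups of 4 values tested for a cow standing apart, 2 had one, and chance alone gives about 1 in 20. DDHD2 was at 17.8 TPM in 4 h cow 3, below the other 4 h cows, which lay between 22.3 and 23.3 TPM. The MGLL to LIPE ratio was 0.772 in control cow 1, above the other controls, which lay between 0.371 and 0.430.

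The effect at 12 h differed from that at 4 h, by the direct edgeR test between those groups, for 3 of the 7 genes. Of all genes tested, 46.7% were called in that comparison. A ratio was flagged as well, by its unadjusted permutation p alone. The edgeR log2 difference of 12 h against 4 h was 0.51 for LIPA (adjusted p = 0.0240), -0.37 for DDHD2 (adjusted p = 0.00683) and -0.93 for LDAH (adjusted p = 0.00103). As given above, the LIPA call was lost on log2(TPM + 1) and the DDHD2 call with the length offset. For the log2 ratio of DDHD2 to PNPLA2 the difference was -0.66 (exact permutation p = 0.0286, unadjusted, lower in 4 of 4 cows at 12 h). That ratio was not corrected for transcript length, and its permutation p was 0.103 after Benjamini-Hochberg adjustment over the ratio tests.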

How the results depend on the processing

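The falls of ABHD5, DDHD2 and LDAH and the rise of LIPA at 12 h against controls were called in all 22 other settings. The members called at 4 h, 2 in the edgeR fit, were 4 with DESeq2, 1 with only 2 groups in the fit, 1 with limma on either TPM scale, 1 without 4 h cow 3 and 12 h cow 2 together, and 0 to 3 with each cow left out. The share of all genes called at 4 h was 14.2% in the main edgeR fit and 11.3% with limma on log2(TPM + 1). It is not given here for the other fits, so their counts cannot be set beside it. At 12 h the left-out counts were 4 to 5, and at 12 h against 4 h 2 to 4. Signs changed only for differences that had not passed the test. PNPLA2 at 12 h against controls was -0.0070 with no count minimum, -0.27 on log2(TPM + 1), -0.28 on log2(TPM + 0.1), and -0.048 to 0.12 with cows left out. LIPE at 12 h against controls was -0.55 to 0.088 with each cow left out and 0.033 without the pair. At 12 h against 4 h, LIPE was -0.33 and -0.35 on the TPM scales and -0.36 to 0.27 with cows left out, MGLL 0.085 with the length offset and -0.16 to 0.032 with cows left out, and ABHD5 -0.25 to 0.037 with cows left out and 0.051 without the pair. In TMM-scaled CPM in place of TPM, the difference of means was 1.25 for LIPE at 12 h against 4 h and 0.372 for PNPLA2 at 12 h against controls. The cause of these changes was not tested.

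No paired analysis was possible because the labels give the cows no number shared between groups. With 4 cows a group, an exact test cannot go below p = 0.0286.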

Other observations

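The mix of transcripts, read as the mean transcript length that RSEM gives each gene in each library, was examined for the 5 members with more than 1 annotated transcript, in 15 tests chosen after seeing the data. For ABHD5 the mean length was 1826 ± 146 bases at 12 h, against 1548 ± 137 bases at 4 h and 1634 ± 86.0 bases after saline (SD, n = 4 each), and the groups overlapped (exact permutation p = 0.0857 for both, unadjusted). LIPA transcripts averaged 2482 ± 0.252 bases at 12 h, against 2480 ± 1.22 in controls, a small difference with no overlap (exact permutation p = 0.0286, unadjusted). LIPE, MGLL and LDAH overlapped between all groups.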
